A study of Mus musculus with 2 samples.

Results

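Granzymes, perforin and the proteins that pack and release them were followed as 10 genes, Gzma, Gzmb, Gzmk, Gzmm, Prf1, Nkg7, Srgn, Ctsw, Serpinb9 and Fasl, out of the 55357 genes counted. They were chosen by symbol, with earlier results of these data known, and all 10 were present in the gene lists. Transcripts were counted in single T cells of mouse ileum in 2 droplet libraries, 1 labelled SAP and 1 labelled Control. Per the study's design, dendritic cells were loaded with phages taken from SAP mice or from healthy mice and cultured with gut T cells of GF mice, and T cells touched by the dendritic cells were tagged with fucosyl-biotin so that they could be sorted from bystanders. The labels give no more than SAP and Control, so Control was read only as the library set against SAP; mouse strain, age and the number of animals pooled are not stated in the labels, nor is it stated whether tagged or untagged cells were sequenced. With 1 library per group there was no replicate and no test, so a difference between the libraries cannot be told apart from one between any 2 preparations, and every interval below is a 95% interval for counting error only.

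Cytotoxic lymphocytes store granzymes, which are serine proteases, in secretory granules together with perforin, and serglycin is the proteoglycan core that holds the granule contents. When the granule fuses with the membrane facing a target cell, perforin opens pores and granzymes reach the target's cytosol, where granzyme B cleaves substrates that start cell death. Lymphocytes lodged in the gut epithelium, many of which carry a gamma delta receptor or a CD8 alpha homodimer, are known for storing granzymes without being freshly activated.

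After filtering, 4826 of 5203 SAP barcodes and 5408 of 5737 Control barcodes remained, with a median of 3374 UMIs (unique transcript molecules) per SAP cell and 3096 per Control cell. The cells matched the T cell label: the 8 T cell marker genes summed to 6955 CPM (UMIs of a gene per 1000000 UMIs) in SAP and 7427 CPM in Control. A small number of very deep cells with at least 2 UMIs of Folr1, a folate receptor gene, and few granule transcripts stood apart. There were 56 of them in SAP, holding 8.21% of its UMIs, and 25 in Control, holding 3.12%, so the main comparisons between the libraries are also given without them. The libraries shared 6 barcodes. Markers of other cell types differed too: the 7 B and plasma cell markers summed to 48.6 CPM in SAP and 1136 CPM in Control, the 10 epithelial markers to 299 CPM in SAP and 201 CPM in Control, and the 7 NK and innate lymphoid markers to 581 CPM in SAP and 621 CPM in Control, with none of these markers at 0 in either library. The 10 myeloid and dendritic markers were nearly level, at 96.2 CPM in SAP, with 1 marker at 0, and 101 CPM in Control. The 6 mast cell markers summed to 9.40 CPM in SAP, with 4 at 0, and 23.8 CPM in Control. The 4 erythroid markers summed to 2.17 CPM in SAP and 4.37 CPM in Control, with 3 at 0 in each. The part of these other cell types in the differences below was not tested.

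The promoters of 4 of these genes are shown because the levels of Gzma, Gzmb and Nkg7 went together across cells in both libraries, while Gzmk, a close neighbour of Gzma in the genome, had its highest level in another gate of cells. RefSeq windows on mouse build GRCm38.p6, from 250 bases before to 50 after each annotated start, were matched for 9 of the 10 genes, all but Ctsw. Gzma lies on chromosome 13 from 113093824 to 113100981 and Gzmk on the same strand from 113171630 to 113180965, 70649 bases away. Gzmb lies on chromosome 14 from 56258836 to 56262334, and Nkg7 on chromosome 7 from 43437138 to 43438246. Capitals mark matches on either strand to TGTGGT (RUNX), GGTGTG (T-box), AGGAAG (ETS) and TGANTCA (AP-1), the core letters of factor families active in cytotoxic lymphocytes. The printed windows are chr13:113100932-113101231 on the minus strand for Gzma, chr14:56262285-56262584 on the minus strand for Gzmb, chr13:113180916-113181215 on the minus strand for Gzmk and chr7:43436888-43437187 on the plus strand for Nkg7, each written 5′ to 3′ along the gene.
Gzma: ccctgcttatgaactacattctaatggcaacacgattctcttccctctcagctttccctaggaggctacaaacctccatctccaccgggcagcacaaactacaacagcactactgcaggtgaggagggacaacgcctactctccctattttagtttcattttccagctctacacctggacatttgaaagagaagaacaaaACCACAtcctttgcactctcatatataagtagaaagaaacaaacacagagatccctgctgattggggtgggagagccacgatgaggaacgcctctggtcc
Gzmb: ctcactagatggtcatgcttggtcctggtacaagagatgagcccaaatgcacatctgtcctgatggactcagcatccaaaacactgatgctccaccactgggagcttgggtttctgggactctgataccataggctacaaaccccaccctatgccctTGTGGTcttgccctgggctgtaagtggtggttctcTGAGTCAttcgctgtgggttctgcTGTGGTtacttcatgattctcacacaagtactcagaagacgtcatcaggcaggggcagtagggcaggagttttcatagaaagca
Gzmk: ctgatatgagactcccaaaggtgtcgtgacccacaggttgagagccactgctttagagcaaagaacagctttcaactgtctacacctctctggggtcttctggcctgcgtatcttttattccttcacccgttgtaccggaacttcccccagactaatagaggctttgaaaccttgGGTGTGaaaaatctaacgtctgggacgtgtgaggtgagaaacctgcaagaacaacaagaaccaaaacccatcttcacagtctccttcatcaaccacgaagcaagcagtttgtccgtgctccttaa
Nkg7: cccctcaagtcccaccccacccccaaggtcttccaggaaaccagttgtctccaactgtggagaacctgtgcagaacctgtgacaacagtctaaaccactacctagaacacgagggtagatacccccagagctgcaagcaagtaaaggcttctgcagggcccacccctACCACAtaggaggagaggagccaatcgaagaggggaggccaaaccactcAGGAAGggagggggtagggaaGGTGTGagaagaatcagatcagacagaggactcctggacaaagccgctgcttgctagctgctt
The Gzmb window held 2 RUNX matches with the only AP-1 match of any granule gene between them, and the Gzma window held 1 RUNX match on the opposite strand. The Gzmk window held a T-box match alone, and the Nkg7 window 1 match each to RUNX, ETS and T-box. The matches in these windows do not overlap. Over the 9 genes, 7 had a RUNX match in at least 1 of their windows, 5 a T-box match, 5 an ETS match and 1 an AP-1 match. Of 32851 mouse promoter windows of the same length, 16.8% held TGTGGT, 19% GGTGTG, 35.4% AGGAAG and 7.81% TGANTCA. A match describes letters and not binding, and Srgn and Gzmm had 2 windows each and so more chances of one.

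The 10 genes together took 2.71% of all SAP UMIs and 2.97% of all Control UMIs, and they spanned a wide range of levels. Gzma, which encodes a trypsin-like granzyme, stood at 19255 CPM in SAP and 21222 CPM in Control and was the gene with the third highest count in each library. Gzmb, whose product cuts after aspartate and activates caspases, stood at 3711 CPM in SAP and 4041 CPM in Control. The other granzymes were far less abundant: Gzmk, another trypsin-like granzyme, stood at 63.3 CPM in SAP and 63.1 CPM in Control, and Gzmm was found as only 23 UMIs in SAP and 21 UMIs in Control. Because the kit counts 1 tag near the 3' end of each transcript, these levels can be set side by side without a correction for transcript length. How reads shared by near-identical relatives among granzymes and serpins were counted is not given in the sources used here.

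Perforin transcripts were scarce beside those of the granzymes. Prf1, the pore former, stood at 35.4 CPM in SAP (32.7 to 38.3) and 37.7 CPM in Control (34.9 to 40.7). The packing and membrane genes were abundant: Srgn, which encodes serglycin, stood at 2097 CPM in SAP and 2333 CPM in Control. Nkg7, which encodes a granule membrane protein needed for efficient degranulation, stood at 1133 CPM in SAP and 1143 CPM in Control. Ctsw, the gene of a cathepsin made mainly by cytotoxic lymphocytes, stood at 546 CPM in SAP and 569 CPM in Control. In both libraries the order of levels was Gzma, Gzmb, Srgn, Nkg7, Ctsw and Serpinb9, each separated from the next by more than its counting interval. Serpinb9, an intracellular inhibitor of granzyme B, stood at 164 CPM in SAP and 175 CPM in Control. Fasl, a death ligand of the TNF family that acts through Fas, stood at 67.0 CPM in SAP and 66.7 CPM in Control, and its counting interval overlapped that of Gzmk in both libraries.

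**Figure D1:**
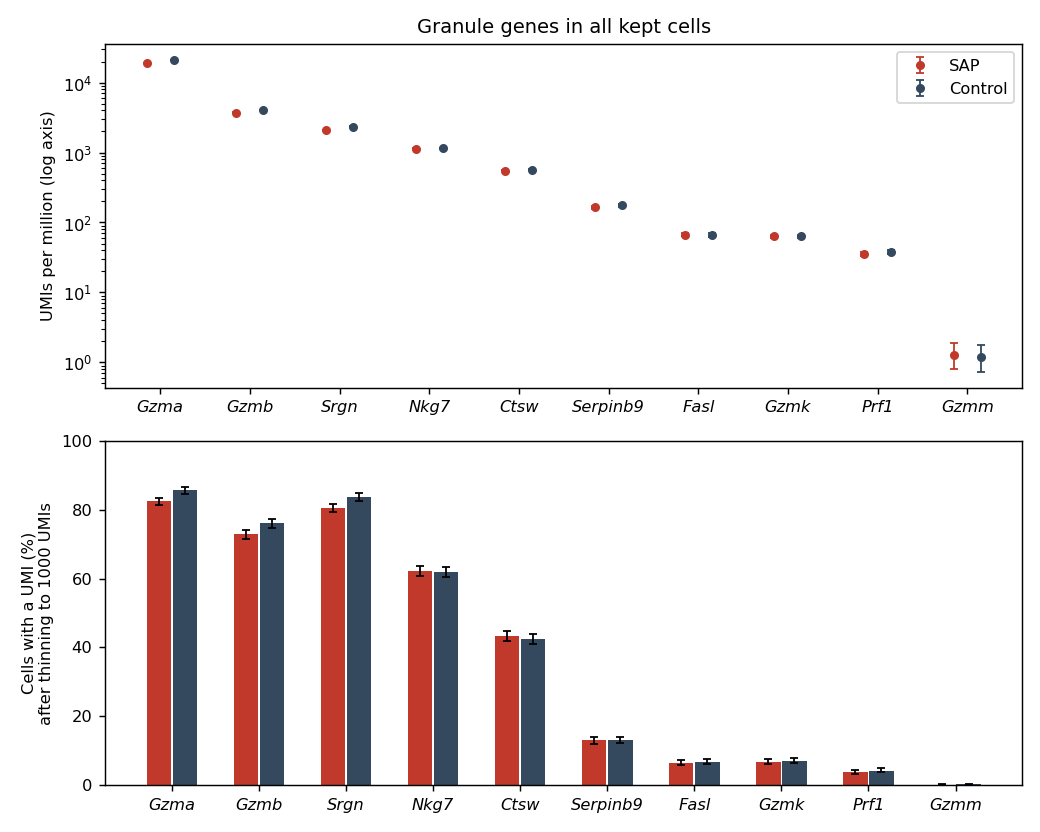
Level of each granule gene in CPM (upper panel, log axis, points with 95% Poisson intervals) and percent of cells with at least 1 UMI after thinning every cell to 1000 UMIs (lower panel, bars with 95% Clopper-Pearson intervals), SAP in red and Control in dark blue. Gzma is highest in both panels, at 82.5% of SAP and 85.7% of Control cells, and Gzmm lowest, with 23 UMIs in SAP and 21 in Control.

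Most cells of both libraries carried granzyme transcripts. Shares were taken after thinning to 1000 UMIs per cell, without the 501 SAP and 507 Control cells below that depth. Gzma was found in 82.5% of SAP cells (81.3 to 83.6) and 85.7% of Control cells (84.7 to 86.7). Gzmb was found in 73.0% of SAP cells (71.6 to 74.3) and 76.1% of Control cells (74.9 to 77.3), and Srgn in 80.7% of SAP (79.5 to 81.9) and 83.8% of Control cells (82.7 to 84.8). These 3 genes of the 9 tested had a lower share in SAP with intervals that did not overlap, and none of the 9 had a higher one. Without the cells with at least 2 Folr1 UMIs the shares were 83.2% of SAP and 86.4% of Control cells for Gzma, 73.4% of SAP and 76.5% of Control cells for Gzmb, and 80.4% of SAP and 82.8% of Control cells for Srgn, and again the intervals did not overlap. Over the 5722 eligible genes, those with 20 CPM in either library and 50 UMIs over both, a lower share in SAP of that kind was seen in 2.36% and a higher one in 5%. Those percentages were not matched for abundance, and most eligible genes were scarcer than these 3. Shares without thinning were 89.1% of SAP and 91.1% of Control cells for Gzma, 78.9% of SAP and 81.5% of Control cells for Gzmb, and 88.4% of SAP and 90.6% of Control cells for Srgn.

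The scarcer genes were found in few cells at this depth. Thinned shares were 62.3% of SAP and 61.9% of Control cells for Nkg7, 43.3% of SAP and 42.5% of Control cells for Ctsw, and 13% of SAP and 13.1% of Control cells for Serpinb9. Gzmk was found in 6.8% of SAP and 7.0% of Control cells, Fasl in 6.43% of SAP and 6.77% of Control cells, and Prf1 in 3.79% of SAP and 4.18% of Control cells. Without thinning, Prf1 was found in 11.1% of SAP and 10.5% of Control cells, so most cells that carried Gzma gave no Prf1 UMI at the depth reached. For these 6 genes the intervals of the libraries overlapped.

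Granule UMIs were also found in cells that gave no Cd3 UMI, and whether these were free transcripts in the droplets was not tested. In the cells with a Folr1 UMI and no Cd3 UMI, 25 in SAP with a median of 4325 UMIs and 16 in Control with a median of 2095, a Gzma UMI was found in 60% of SAP and 56.3% of Control cells, but its level was only 174 CPM in SAP and 195 CPM in Control. Gzmb stood there at 40.5 CPM in SAP and 50.1 CPM in Control, and Srgn at 34.7 CPM in SAP and 25 CPM in Control. After thinning, Gzma was found in 2 of 19 such SAP cells and 0 of 9 such Control cells. A single Gzma or Gzmb UMI in an unthinned cell was therefore not taken to mark that cell as expressing the gene. Gzmk, Prf1 and Gzmm had 0 UMIs in the cells with a Folr1 UMI and no Cd3 UMI. That allows a thinned share of up to 15.8% in SAP and 33.3% in Control.

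Gzma and Gzmb differed between cells in amount. In thinned cells the number of Gzma UMIs per 1000 had a median of 18 in SAP, with 3 at the lower and 31 at the upper quartile, and a median of 20 in Control, with 6 at the lower and 32 at the upper quartile. The highest single cell reached 111 Gzma UMIs in SAP and 98 in Control. Gzmb had a median of 3 UMIs per 1000 in each library and a highest value of 48 in SAP and 35 in Control. Srgn had a narrower range, with a median of 2 and an upper quartile of 3 UMIs in each library.

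Across the libraries the granule genes were nearly level. None of the 9 granule genes that passed the filter (0 of 9) reached a 1.2-fold difference, against 16.3% of all eligible genes. The median log2 ratio of SAP over Control was -0.09 over the 9 granule genes and 0.04 over all eligible genes. The interval lay below 1 for 5 of the 9, Gzma, Gzmb, Srgn, Ctsw and Serpinb9, against 15.5% of all eligible genes, and above 1 for none, against 29.9%. An interval narrows with the number of UMIs, and these 5 were abundant. The shares over all genes, here and below, were not matched for abundance, so these counts show no excess particular to granule genes. The SAP over Control ratio was 0.907 for Gzma (0.903 to 0.912), 0.918 for Gzmb (0.909 to 0.928) and 0.899 for Srgn (0.886 to 0.911). It was 0.991 for Nkg7 (0.972 to 1.011), 1.002 for Gzmk (0.922 to 1.09), 0.940 for Prf1 (0.842 to 1.05) and 1.005 for Fasl (0.927 to 1.09).

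The Folr1-positive cells moved with this comparison. Without them the ratio of SAP over Control was 0.957 for Gzma (0.953 to 0.962), 0.969 for Gzmb (0.959 to 0.979) and 0.947 for Srgn (0.933 to 0.960), all still below 1. The ratio became 1.05 for Nkg7 (1.03 to 1.07) and 1.01 for Ctsw (0.984 to 1.04), so that 0 of 9 were 1.2-fold apart, against 8.37% of all eligible genes, 3 of the 9 genes had an interval below 1, against 9.94% of all eligible genes, and 1 had one above 1, against 27.1%. The median log2 ratio of the granule genes was then -0.01, and that of all eligible genes 0.05. Gzma, Gzmb, Srgn, Prf1 and Serpinb9 were below 1 under each of 9 other settings of filter, cell set and scaling, with Gzma between 0.845 and 0.957. Nkg7, Ctsw, Gzmk and Fasl lay on either side of 1, depending on the setting. In the cells with a Cd3d, Cd3e or Cd3g UMI, 4651 in SAP and 5251 in Control, the ratio was 0.915 for Gzma, 0.926 for Gzmb and 0.908 for Srgn.

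**Figure D2:**
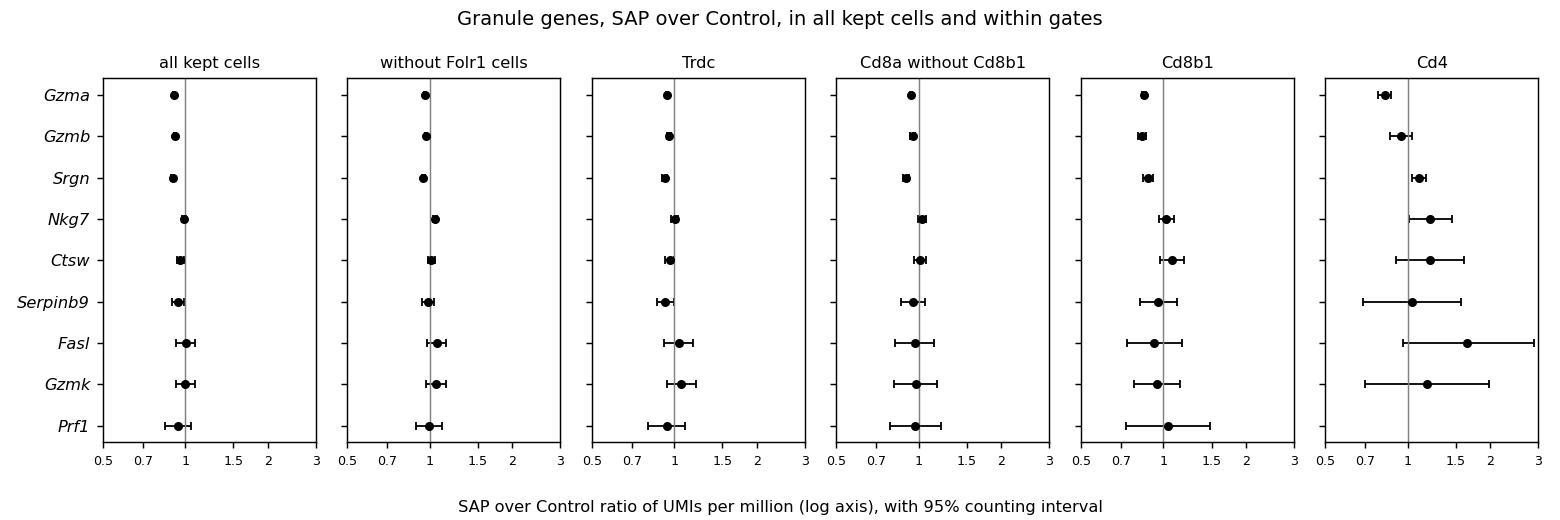
SAP over Control ratio of CPM (log axis, points) with 95% counting intervals (bars) for the granule genes in all kept cells, in cells with fewer than 2 Folr1 UMIs and within each gate; genes too scarce in a gate are left blank, and the grey line marks 1. Gzma and Gzmb lie to the left of 1 in every panel, while Srgn lies at 0.877 in Cd8b1 cells and at 1.10 in Cd4 cells.

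Cells were then split by the receptor and coreceptor transcripts they carried. A cell entered a gate with at least 1 UMI of the gating gene and 0 UMIs of the genes of the other gates: Trdc, the constant region of the delta chain (2022 SAP and 2232 Control cells), Cd8a without Cd8b1, the pattern of a CD8 alpha homodimer (1218 SAP and 1468 Control cells), Cd8b1, the CD8 beta chain (548 SAP and 541 Control cells), and Cd4 (168 SAP and 186 Control cells). The exception was Cd8a, which both the Trdc gate and the Cd8b1 gate allowed. Median depth was close between gates, from 3396 to 3614 UMIs in SAP and from 3121 to 3358 UMIs in Control. A gate on a single UMI is not pure: Trac, the alpha chain constant region, still stood at 262 CPM in SAP and 289 CPM in Control cells of the Trdc gate, against 573 CPM in SAP and 607 CPM in Control cells of the Cd8b1 gate.

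Gzma separated the gates most. In SAP it stood at 23260 CPM in Trdc cells, 25393 CPM in Cd8a without Cd8b1 cells, 12042 CPM in Cd8b1 cells and 3542 CPM in Cd4 cells. In Control it stood at 24714 CPM in Trdc cells, 27053 CPM in Cd8a without Cd8b1 cells, 14205 CPM in Cd8b1 cells and 4297 CPM in Cd4 cells. The order of the gates was the same in both libraries, and no counting intervals overlapped. Trdc over Cd4 cells gave a fold of 6.57 in SAP (6.30 to 6.85) and 5.75 in Control (5.55 to 5.96), and Trdc over Cd8b1 cells 1.93 in SAP and 1.74 in Control.

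Gzmb had the same Cd4 minimum but a flatter profile among the other gates. In SAP it stood at 4415 CPM in Trdc cells, 4189 CPM in Cd8a without Cd8b1 cells, 3304 CPM in Cd8b1 cells and 1360 CPM in Cd4 cells. In Control it stood at 4605 CPM in Trdc cells, 4408 CPM in Cd8a without Cd8b1 cells, 3941 CPM in Cd8b1 cells and 1438 CPM in Cd4 cells. The balance of the 2 main granzymes therefore shifted across gates. There were 6.06 Gzma UMIs per Gzmb UMI in SAP and 6.14 in Control cells with Cd8a and no Cd8b1, 5.27 in SAP and 5.37 in Control Trdc cells, 3.64 in SAP and 3.6 in Control Cd8b1 cells, and 2.60 in SAP and 2.99 in Control Cd4 cells. Thinned shares followed the levels: Gzma was found in 85.8% of SAP and 88.3% of Control Trdc cells, and in 51.3% of SAP and 56.7% of Control Cd4 cells, where the median cell held 1 Gzma UMI per 1000 in each library.

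Gzmk had its own profile, with its highest level in Cd8b1 cells. It stood at 112 CPM in SAP (97.7 to 127) and 118 CPM in Control (103 to 135) Cd8b1 cells, against 68.4 CPM in SAP and 64.4 CPM in Control Trdc cells. It stood at 50.8 CPM in SAP and 52.1 CPM in Control cells with Cd8a and no Cd8b1, and at 51.7 CPM in SAP and 44.2 CPM in Control Cd4 cells. The level intervals of the Cd4 gate overlapped those of the Trdc gate and of the Cd8a without Cd8b1 gate in both libraries. Even so, Trdc over Cd4 cells gave 1.32 in SAP (0.930 to 1.94) and 1.46 in Control (1.01 to 2.17), the last with an interval above 1. The fold of Trdc over Cd8b1 cells was 0.612 in SAP (0.523 to 0.718) and 0.547 in Control (0.466 to 0.644), opposite in direction to Gzma. Gzmm was too scarce to place, with at most 12 UMIs in any of the 4 gates.

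Prf1, Nkg7, Ctsw and Serpinb9 were all lowest in Cd4 cells. Prf1 stood at 40.3 CPM in SAP and 43.0 CPM in Control Trdc cells, and at 12.5 CPM in SAP and 14.3 CPM in Control Cd4 cells, the last resting on 8 UMIs in SAP and 10 in Control. Nkg7 stood at 1316 CPM in SAP and 1313 CPM in Control Trdc cells, at 994 CPM in SAP and 970 CPM in Control Cd8b1 cells, and at 415 CPM in SAP and 343 CPM in Control Cd4 cells. Ctsw stood at 640 CPM in SAP and 666 CPM in Control Trdc cells, at 437 CPM in SAP and 407 CPM in Control Cd8b1 cells, and at 166 CPM in SAP and 138 CPM in Control Cd4 cells. For Nkg7 and Ctsw the counting intervals of Trdc and of Cd8a without Cd8b1 cells overlapped, and Cd8b1 cells lay between those and Cd4 cells. Serpinb9 stood at 193 CPM in SAP and 208 CPM in Control Trdc cells and at 76.8 CPM in SAP and 74.1 CPM in Control Cd4 cells.

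Srgn ran the other way. It stood at 3540 CPM in SAP (3396 to 3689) and 3210 CPM in Control (3079 to 3346) Cd4 cells, above each of the other gates. Those were at 2165 CPM in SAP and 2344 CPM in Control Trdc cells, 1992 CPM in SAP and 2216 CPM in Control cells with Cd8a and no Cd8b1, and 2154 CPM in SAP and 2457 CPM in Control Cd8b1 cells. Serglycin is made by many blood cell types, and here its transcript was found in 92.3% of SAP and 86.5% of Control thinned Cd4 cells. For Fasl the level intervals of Trdc and Cd8b1 cells overlapped, but the fold of Trdc over Cd8b1 cells had an interval below 1 in Control. That fold was 0.914 in SAP (0.764 to 1.10) and 0.816 in Control (0.681 to 0.983). It stood at 70.7 CPM in SAP and 68.1 CPM in Control Trdc cells, 77.4 CPM in SAP and 83.4 CPM in Control Cd8b1 cells, and 56.4 CPM in SAP and 34.2 CPM in Control Cd4 cells, the last on 36 UMIs in SAP and 24 in Control.

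**Figure D3:**
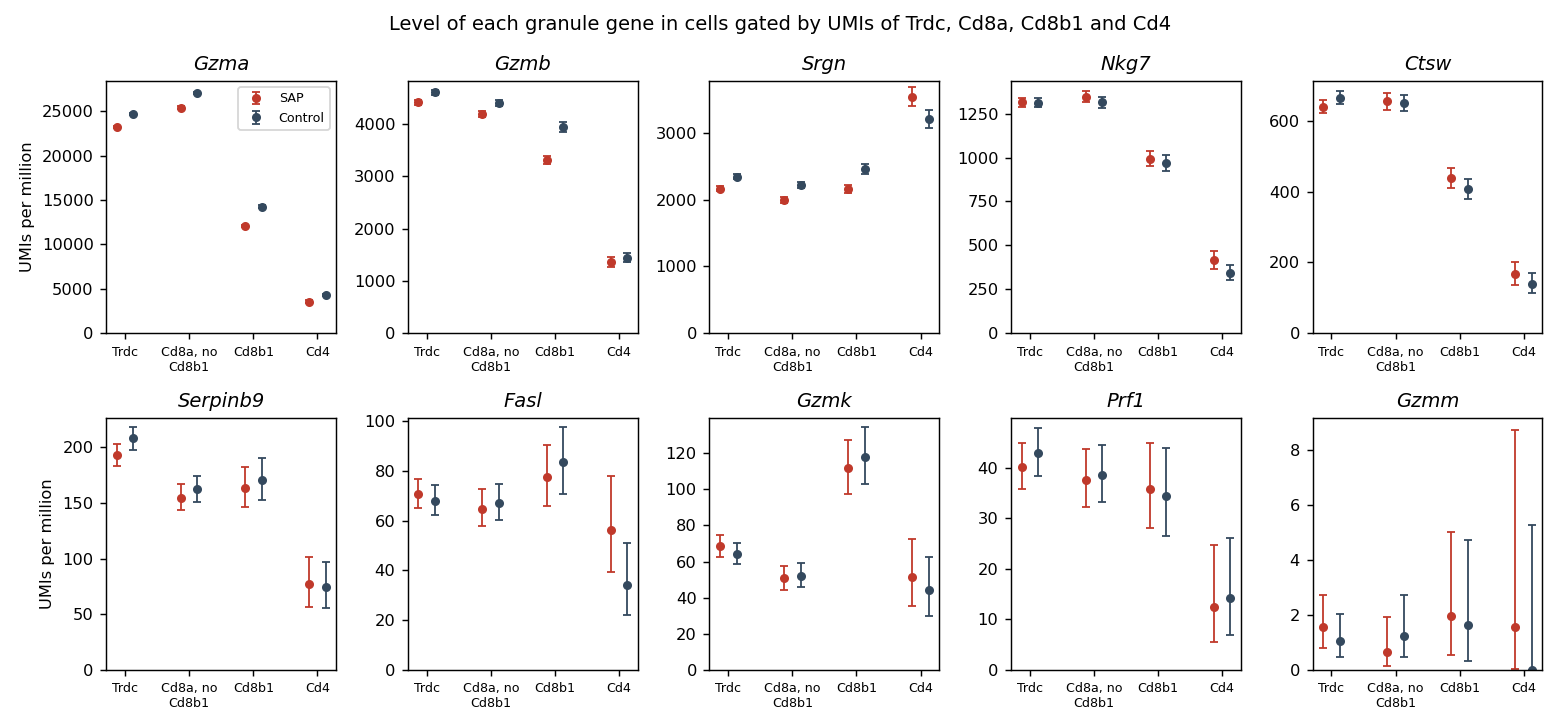
Level of each granule gene in CPM (linear axes from 0, points with 95% Poisson intervals) in cells gated on Trdc, Cd8a without Cd8b1, Cd8b1 and Cd4, SAP in red to the left of Control in dark blue. Gzma steps down to 3542 in SAP and 4297 in Control Cd4 cells, Gzmk is highest in Cd8b1 cells, and Srgn is highest in Cd4 cells, at 3540 in SAP and 3210 in Control.

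Counted at a fold of 2 in both libraries, 6 of 9 eligible granule genes were higher in Trdc than in Cd4 cells (Gzma, Gzmb, Prf1, Nkg7, Ctsw and Serpinb9), against 7.44% of 5501 genes. The same 6 of 9 were higher in Cd8a without Cd8b1 than in Cd4 cells, against 8.88% of 5576 genes. In Cd8b1 over Cd4 cells 7 of 9 were, the same 6 and Gzmk, against 1.89% of 4865 genes. Prf1 lay below 20 CPM in Cd4 cells of both libraries and so passed the filter only through the gate where it was high. Leaving it out, the counts were 5 of 8, 5 of 8 and 6 of 8. The shares of all genes were not recounted in that way, so these counts have no matching share. None of the 9 was lower in any of these, against 3.73%, 3.5% and 1.83% of genes. Between Trdc and Cd8b1 cells 0 of 9 reached that fold, against 2.92% of genes higher and 0.87% lower. The count for Cd8b1 over Cd4 cells was 4 with gates at 2 UMIs and 3 with gates that allowed other gating genes. The share of all genes was not counted under those gates, so these counts cannot be set against 1.89%.

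Within gates the libraries were again close, and Gzma was lower in SAP in each of the 4 as gated here. The ratio of SAP over Control for Gzma was 0.941 in Trdc cells (0.935 to 0.947), 0.939 in Cd8a without Cd8b1 cells (0.931 to 0.946), 0.848 in Cd8b1 cells (0.833 to 0.863) and 0.824 in Cd4 cells (0.780 to 0.871). For Gzmb it was 0.959 in Trdc cells, 0.95 in Cd8a without Cd8b1 cells, 0.838 in Cd8b1 cells (0.811 to 0.867) and 0.946 in Cd4 cells (0.863 to 1.04). Some of these turned with the gate: with gates that allowed other gating genes, Cd4 cells stood at 1.08 for Gzma (1.04 to 1.11) and 1.13 for Gzmb (1.06 to 1.2), and with gates at 2 UMIs Gzmb in Trdc cells stood at 1.01 (0.992 to 1.02). In Cd8b1 cells without the Folr1-positive ones Gzma remained at 0.864 (0.849 to 0.879) and Gzmb at 0.852 (0.824 to 0.881), in Trdc cells Gzma stood at 0.964 (0.958 to 0.970) and Gzmb at 0.982 (0.967 to 0.997), and in Cd8a without Cd8b1 cells Gzma stood at 0.985 (0.977 to 0.993) and Gzmb at 0.997 (0.978 to 1.02). In Cd4 cells without them Gzma stood at 0.825 (0.781 to 0.871) and Gzmb at 0.944 (0.861 to 1.04).

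None of the 9 genes was 1.2-fold apart in Trdc, Cd8a without Cd8b1 or Cd8b1 cells, against 16.8%, 23.2% and 35.2% of eligible genes. In Cd4 cells 4 of 8 were, against 40%: Gzma was lower in SAP, and Nkg7 (1.21, 1.01 to 1.45), Ctsw (1.2, 0.903 to 1.60) and Fasl (1.65, 0.957 to 2.89) were higher. The intervals of Ctsw and Fasl include 1. Without the Folr1-positive cells Nkg7 was at 1.21 (1.01 to 1.44), Ctsw at 1.21 (0.908 to 1.61) and Fasl at 1.61 (0.932 to 2.83). The median log2 ratio of the granule genes was -0.06 in Trdc, -0.05 in Cd8a without Cd8b1, -0.08 in Cd8b1 and 0.18 in Cd4 cells. Its size in Trdc cells and its sign in Cd8a without Cd8b1 cells depended on the setting. With gates at 2 UMIs it was -0.00081 in Trdc and 0.088 in Cd8a without Cd8b1 cells. Without the Folr1-positive cells it was -0.03 in Trdc and 0.01 in Cd8a without Cd8b1 cells. Prf1 was at 0.937 in Trdc cells (0.8 to 1.10) and 1.04 in Cd8b1 cells (0.732 to 1.48), so a small difference in Prf1 was not detectable at this depth.

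Trdc cells differed by whether they also carried Cd8a. Gzma stood at 26731 CPM in SAP and 28061 CPM in Control cells with Trdc and Cd8a, and at 12840 CPM in SAP and 15838 CPM in Control cells with Trdc and no Cd8a. Between the libraries 0 of 9 genes were 1.2-fold apart with Cd8a, against 16.7% of eligible genes, and 4 of 9 without it, against 40.8%. The count of 4 is near that share and does not set the granule genes apart. Those 4 were lower in SAP: Gzma at 0.811 (0.798 to 0.824), Gzmb at 0.769 (0.742 to 0.796), Srgn at 0.814 (0.780 to 0.851) and Serpinb9 at 0.751 (0.654 to 0.861). Without Folr1-positive cells the ratio was 0.874 for Gzma, 0.832 for Gzmb, 0.878 for Srgn and 0.814 for Serpinb9. Of the 9 genes 2, Gzmb and Serpinb9, were then 1.2-fold apart, against 32.7% of eligible genes, so no more often than other genes.

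Cells with no UMI of any gating gene, 745 in SAP and 850 in Control, had a lower value of each of the 9 genes in SAP, with an interval below 1 for 5 of them, against 20.1% of eligible genes. Their median depth was 2014 UMIs in SAP and 2241 UMIs in Control. The ratio was 0.670 for Gzma (0.655 to 0.685) and 0.635 for Gzmb (0.608 to 0.663), and 7 of 9 genes were 1.2-fold apart, against 57.5% of eligible genes. These cells held most Folr1 transcripts, 2147 CPM in SAP and 806 CPM in Control, and without the Folr1-positive cells the ratio was 0.856 for Gzma (0.837 to 0.875) and 0.813 for Gzmb (0.778 to 0.849), with 1 of 9 genes 1.2-fold apart, against 36.4%. A lower value of each of the 9 genes no longer held then: Serpinb9 was at 1.16 (0.984 to 1.38), Fasl at 1.16 (0.902 to 1.5), Prf1 at 1.04 (0.713 to 1.52) and Gzmk at 1.004 (0.732 to 1.37).

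Gzma and Gzmb were carried by the same cells. Among thinned cells with Gzma, Gzmb was found in 86.3% in SAP and 87.1% in Control, and among cells without Gzma in 10.3% in SAP and 9.86% in Control. Across cells the Pearson correlation of their log levels was 0.816 in SAP (4325 cells) and 0.789 in Control (4901 cells), the highest of any gene compared with Gzma; cells of a library share its preparation and depth, so this is a description. Nkg7 correlated with Gzma at 0.524 in SAP and 0.501 in Control, and was found in 68.4% of SAP and 66.8% of Control cells with Gzma and in 33.8% of SAP and 32.4% of Control cells without it. Srgn correlated with Gzma at 0.160 in SAP and 0.0785 in Control, and was found in 82.4% of SAP and 84.9% of Control cells with Gzma and in 72.7% of SAP and 77.3% of Control cells without it.

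The scarce genes lay mostly within Gzma-carrying cells. Of thinned cells with Gzmk, 95.9% in SAP and 96.8% in Control carried Gzma, against 81.5% in SAP and 84.9% in Control of cells without Gzmk. In cells with Gzmk over cells without, Gzma was at 1.31 in SAP and 1.2 in Control, and Gzmb at 1.47 in SAP and 1.40 in Control. Prf1 cells were richer in both main granzymes: Gzma stood at 28282 CPM in SAP cells with Prf1 and 17984 CPM in those without, a fold of 1.57, and at 28286 CPM in Control cells with Prf1 and 20312 CPM in those without, a fold of 1.39. For Gzmb that fold was 1.59 in SAP and 1.54 in Control.

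Cells found together were measured as the share with both genes over the product of their shares. Of 45 pairs of granule genes 36 had at least 5 cells expected in both libraries, and 1 of the 36 reached 1.2 in both, against 5.72% of 12020528 gene pairs. A pair's value cannot exceed the inverse of the larger share, so the 15 pairs with Gzma or Srgn, each found in most Control cells, could not reach 1.2 there. Over all pairs of granule genes the count was 4 at 2000 UMIs per cell and 2 without the Folr1-positive cells. The share of all gene pairs was not counted under those settings. Of the 21 pairs that could reach 1.2 in both libraries, 1 did, against 5.93% of 11595677 gene pairs. That pair was Serpinb9 with Fasl, at 1.75 in SAP (63 cells) and 1.22 in Control (53 cells). Gzma with Gzmb was at 1.18 in SAP and 1.15 in Control, where the highest values possible were 1.21 in SAP and 1.17 in Control. Gzmk with Prf1 was at 0.538 in SAP and 1.95 in Control, and Prf1 with Fasl at 0.569 in SAP and 1.87 in Control; each rests on 6 SAP cells, and 28 and 26 Control cells, so the opposite sides rest on few cells. At 2000 UMIs per cell Gzmk with Prf1 was at 1.34 in SAP and 1.35 in Control.

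**Figure D4:**
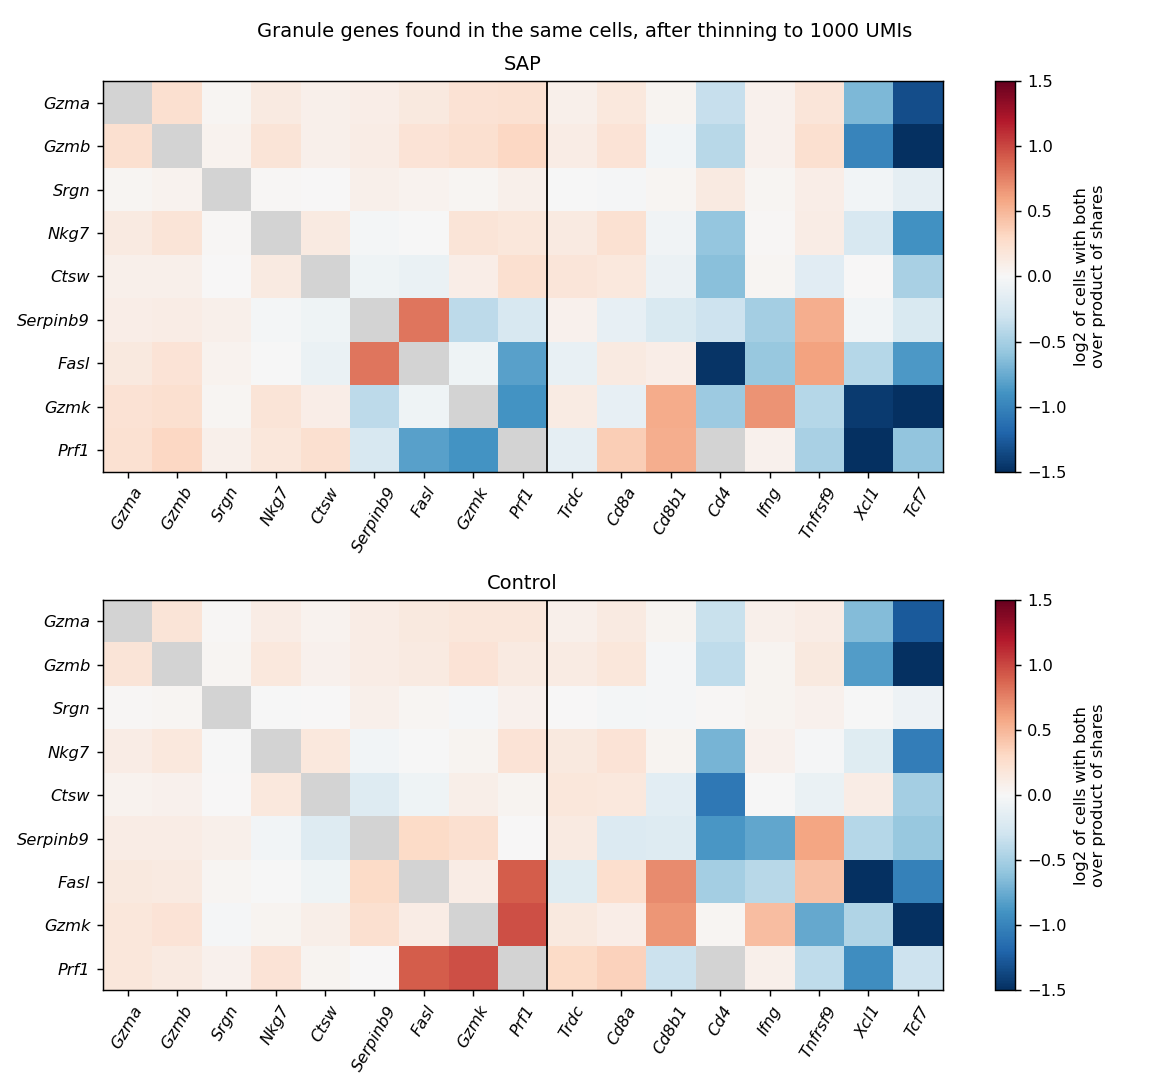
Log2 of the share of cells with both genes over the product of their shares, in cells thinned to 1000 UMIs, for pairs of granule genes (left of the line) and for granule genes with gating and state genes (right of it), SAP above Control. Red is above and blue below independence, grey marks too few expected cells or the gene itself, and the scale ends at 1.5 either way; Tcf7 and Xcl1 are blue with Gzma, Gzmb and Gzmk in both libraries.

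Granzyme transcripts were low in cells with Tcf7, a transcription factor gene of memory-like and naive T cells. Gzma stood at 2229 CPM in SAP cells with Tcf7 and 22016 CPM in SAP cells without it, a fold of 0.101, and at 2337 CPM in Control cells with Tcf7 and 24512 CPM in Control cells without it, a fold of 0.0953. The fold was 0.138 in SAP and 0.111 in Control for Gzmb, 0.417 in SAP and 0.450 in Control for Gzmk, and 0.482 in SAP and 0.421 in Control for Nkg7. Srgn was level at 1.02 in SAP and 0.974 in Control. Cells with Xcl1, a chemokine gene, also had less Gzma, with a fold of 0.453 in SAP and 0.411 in Control, while Ctsw there was at 1.13 in SAP and 1.10 in Control.

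The activation genes Tnfrsf9, which encodes 4-1BB, and Ifng, which encodes interferon gamma, went with different granule genes. In cells with Tnfrsf9 over cells without, Serpinb9 was at 1.79 in SAP (1.65 to 1.94) and 1.76 in Control (1.63 to 1.89). Fasl was at 1.2 in SAP and 1.36 in Control, and Gzmk at 0.781 in SAP and 0.803 in Control. The main granzymes were higher there too, with Gzma at 1.61 in SAP and 1.41 in Control and Gzmb at 1.52 in SAP and 1.26 in Control. In cells with Ifng over cells without, Gzmk was at 1.55 in SAP (1.37 to 1.76) and 1.36 in Control (1.2 to 1.55). Serpinb9 was at 0.813 in SAP and 0.641 in Control, and Fasl at 0.878 in SAP (0.762 to 1.01) and 0.824 in Control (0.713 to 0.949). Gzma was at 1.11 in SAP and 0.981 in Control there, and Gzmb at 1.22 in SAP and 0.993 in Control. Thus Gzmk lay on one side of 1 and Serpinb9 and Fasl on the other with both genes, in both libraries, though the interval of Fasl with Ifng in SAP included 1. For Gzmk and Serpinb9 with Ifng the thinned pair values had the same sides. Gzmk with Ifng was at 1.60 in SAP and 1.38 in Control, and Serpinb9 with Ifng at 0.701 in SAP and 0.583 in Control. Apart from these, Gzmk with Cd8b1 was at 1.47 in SAP and 1.59 in Control.

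The genes most like each granule gene, by the lower of the correlations in the 2 libraries over 8458 genes, placed Ccl5, a chemokine gene, first outside the set for Gzma (0.782 in SAP and 0.769 in Control), Gzmb (0.669 in SAP and 0.640 in Control), Gzmk (0.166 in SAP and 0.141 in Control), Prf1 (0.121 in SAP and 0.112 in Control) and Nkg7 (0.514 in SAP and 0.496 in Control). After Ccl5 came Cd7 and Cd3g for Gzma, Cd3g and Cd3e for Gzmb, Plac8 and Scin for Gzmk, Klrd1 and Fgl2 for Prf1, and Cd3g and Cd7 for Nkg7. Ctsw was nearest to Cd7 (0.339 in SAP and 0.322 in Control), Cd3g and Fcer1g. The remaining genes had other neighbours: Eif1, Tpt1 and B2m for Srgn, Vps37b, Crem and Ifngr1 for Serpinb9 (0.302 to 0.308 in SAP and 0.283 to 0.306 in Control), and Stat3, Dgat1 and Akap13 for Fasl, none above 0.145. Mitochondrial, ribosomal protein, Gm-numbered, Rik and immunoglobulin genes were left out as neighbours, so a gene of those kinds may lie nearer than the ones named. Gzmm has no neighbours listed. The values of scarce genes are weak correlations in sparse counts and are no finding.

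A thinned cell carried 3.72 ± 1.44 of the 10 genes in SAP and 3.81 ± 1.37 in Control (mean and SD over cells), and without the Folr1-positive cells the mean was 3.76 in SAP and 3.82 in Control. At least 5 of the 10 were found in 31.7% of SAP and 33.3% of Control cells, and 0 or 1 in 9.09% of SAP and 7.33% of Control cells. The mean was 3.91 in SAP and 4.02 in Control Trdc cells, 3.98 in SAP and 4.03 in Control cells with Cd8a and no Cd8b1, 3.65 in SAP and 3.73 in Control Cd8b1 cells, and 2.63 in SAP and 2.52 in Control Cd4 cells. Cd4 cells with 0 or 1 granule gene were 28.8% of that gate in SAP and 24.7% in Control.

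**Figure D5:**
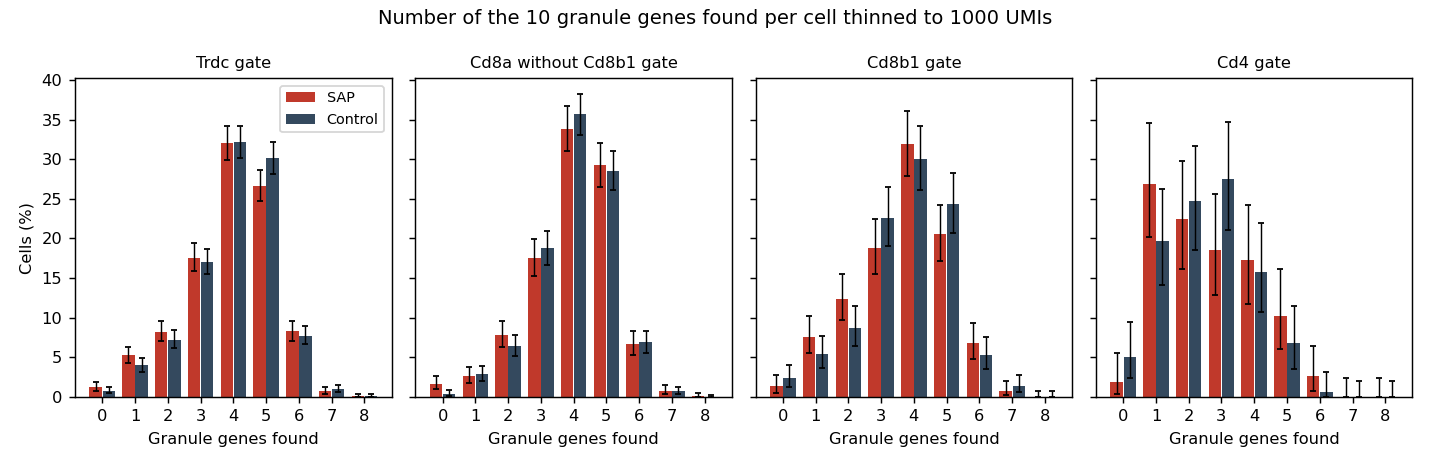
Percent of cells (vertical axis, bars with 95% Clopper-Pearson intervals) by the number of the 10 granule genes found after thinning to 1000 UMIs (horizontal axis, 0 to 8), in the Trdc, Cd8a without Cd8b1, Cd8b1 and Cd4 gates, SAP in red to the left of Control in dark blue. The Cd4 gate is shifted to lower numbers, with means of 2.63 in SAP and 2.52 in Control, while the Trdc gate has means of 3.91 in SAP and 4.02 in Control.

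Other genes of the granule pathway were described from 4 lists. Of 6 other granzymes 0 were eligible: Gzmc had 10.6 CPM in SAP and 11.5 CPM in Control, and Gzmd, Gzme and Gzmn had 0 UMIs in both, where 3 UMIs is the limit. Of 11 granule proteases, activators and inhibitors 9 were eligible, with a median ratio of 0.991 and none 1.2-fold apart between the libraries, against 16.3% of all eligible genes. Without the Folr1-positive cells the median ratio was 1.04 and again none was, against 8.37%. In Trdc over Cd4 cells 3 of the 9 had a fold of at least 2 in both libraries, against 7.44% of genes: Cst7, the gene of the inhibitor cystatin F, at 4.63 in SAP and 6.14 in Control, Ctsc, whose product activates progranzymes, at 2.75 in SAP and 5.0 in Control, and Ctsd at 2.13 in SAP and 2.03 in Control.

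Of 13 trafficking and fusion genes found, 9 were eligible between the libraries, with a median ratio of 0.991. Of the 9, 1 was 1.2-fold apart, against 16.3% of all eligible genes. That was Ebag9, whose product restrains granule secretion, at 20.4 CPM in SAP and 15.8 CPM in Control (1.29, 1.10 to 1.51). It passed the filter of 20 CPM only through SAP, where it was high. Without the Folr1-positive cells the median ratio of the 10 then eligible was 1.03. Ebag9, at 1.34 (1.14 to 1.58), was again the only 1 of them 1.2-fold apart, against 8.37% of all eligible genes. Of 10 genes of this list eligible in Trdc over Cd4 cells, 1 was 2-fold higher in both libraries, against 7.44% of genes. Another 1 was lower, against 3.73%. The higher one, Igf2r, a receptor that sorts granzymes to lysosomes, was at 2.45 in SAP and 2.33 in Control. The lower one, Stx11, a syntaxin of granule fusion, was at 0.181 in SAP and 0.230 in Control. Stx11 lay below 20 CPM in Trdc cells of both libraries and so passed the filter only through the Cd4 gate, where it was high. Of 5 other death ligands, receptors and cytokines, 4 were eligible. None of the 4 was 1.2-fold apart between the libraries, against 16.3% of all eligible genes. Without the Folr1-positive cells again none was, against 8.37%. In Trdc over Cd4 cells 1 of the 4 was 2-fold higher in both libraries, against 7.44% of genes, and 2 were lower, against 3.73%. Tnfsf10, the TRAIL gene, was at 3.51 in SAP and 4.54 in Control, whereas Ifng was at 0.334 in SAP and 0.377 in Control. Tnf was at 0.151 in SAP and 0.170 in Control. Ifng and Tnf, 2 of the 4, were also lower in Trdc than in Cd8b1 cells, against 0.87% of genes, the reverse of Gzma. The values were 0.339 in SAP and 0.474 in Control for Ifng and 0.283 in SAP and 0.429 in Control for Tnf. Tnf lay below 20 CPM in Trdc cells of both libraries. It passed the filter in both comparisons only through the other gate, where it was high.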

How the data were processed

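Single-cell RNA was measured with a 10x Genomics 3' kit in 1 SAP and 1 Control library of ileum T cells, per the labels' protocols. The deposited values are raw counts of UMIs per gene and barcode, made with Cell Ranger, whose version stands as 7.1.0 in the matrices, per the file headers. The genome mm10 and the tool Seurat appear in the submitters' processing notes. The gene annotation is not given in the sources used here. The 10 genes and the other lists were chosen with earlier results of these data known.

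Barcodes were kept with at least 500 UMIs, 300 genes and at most 10% mitochondrial UMIs. Scrublet (scanpy 1.11.5) called 1 barcode in each library, which is too few, so the top scores were removed up to 0.8% per 1000 barcodes (202 SAP and 257 Control). Deposited depth was 19144320 SAP and 19142384 Control UMIs. Counts were summed over cells and scaled to CPM. Ratios have exact conditional binomial intervals, levels exact Poisson intervals and shares Clopper-Pearson intervals (scipy 1.17.1); they ignore spread between cells and animals. No test was run, since each group is 1 library, and no replicate exists.

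A gene was eligible with 20 CPM in either library and 50 UMIs over both. The 10 genes are always named. List genes were named at a fold of 1.2 between libraries or 2 between gates in both libraries. For each of the 10 but Gzmm the 3 other genes with the highest correlation were named, over genes found in at least 2% of cells. Mitochondrial, ribosomal protein (Rpl and Rps), Gm-numbered, Rik and immunoglobulin genes were not named as neighbours. Gzmc, Gzmd, Gzme, Gzmn and the state genes were named after their values were seen. Scaling factors came from edgeR 4.0.16 (TMM) and DESeq2 1.42.0 (median of ratios), with no test from either. The interval and count steps were tested on simulated data. Removing cells with 2 or more Folr1 UMIs was added after the data were seen.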

Additional observations from a re-analysis of the deposited data

Results flagged for a closer look

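Srgn, the serglycin gene, was the only granule gene whose SAP over Control ratio lay on opposite sides of 1 in 2 gates with neither counting interval reaching 1. The ratio was 1.1 in Cd4 cells (1.04 to 1.17), against 0.924 in Trdc cells (0.905 to 0.943), 0.899 in Cd8a without Cd8b1 cells (0.874 to 0.925) and 0.877 in Cd8b1 cells (0.841 to 0.914). The Cd4 value rests on 2260 UMIs in 168 SAP cells and 2253 UMIs in 186 Control cells. Prf1, Gzmk, Fasl and Serpinb9 had from 8 to 52 UMIs in Cd4 cells of a library, too few for narrow intervals. How many of all genes lay on opposite sides in this way was not counted, so Srgn cannot be called unusual for it. Without Folr1-positive cells it was 1.10 in Cd4 cells and 0.944, 0.942 and 0.891 in the other gates in the same order. The difference between gates was not tested, since each group is 1 library.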

How the results depend on the processing

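No paired analysis was possible because each group is 1 library with no replicate number. With 1 library per group no replicate could be left out. Of the alternatives, 69 values of the summary results stayed close to the reported one and 17 moved; of single genes, 291 stayed, 104 moved and 3 changed side. TMM factors moved the median log2 ratio of SAP over Control to -0.19 for the granule genes and median-of-ratios factors to -0.17, since they shift every gene by -0.10 and -0.08; leaving out cells with 2 or more Folr1 UMIs, an alternative chosen after seeing the data, moved it to -0.011. The number of eligible genes 1.2-fold apart, 931, became 16135 with no filter on low counts and 459 without the Folr1 cells. With gates at 2 UMIs the median log2 ratio was -0.00081 in Trdc cells and 0.088 in Cd8a without Cd8b1 cells, the count for Cd8b1 over Cd4 cells was 4, and Gzmb in Trdc cells stood at 1.01; with gates that allowed other gating genes that count was 3 and Gzma in Cd4 cells stood at 1.08. Ctsw over all cells stood at 1.01 without the Folr1 cells. The mean number of granule genes per cell was 2.81 in SAP and 2.93 in Control at 500 UMIs, and 4.55 in SAP and 4.61 in Control at 2000 UMIs. Pairs at 1.2 in both libraries numbered 4 at 2000 UMIs, 2 without the Folr1 cells, 2 in Trdc cells and 0 in Cd8b1 cells. For these counts of pairs, and for those of genes between gates, the share over all genes was not counted under the alternatives. Beyond the shifts of the scaling factors, the cause was not tested. The depth limits Gzmm throughout and Prf1, Gzmk and Fasl in Cd4 cells, where a gate held from 8 to 36 UMIs.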
